A study of Homo sapiens with 8 samples.

Results

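Control cells carrying a scramble shRNA were compared with control cells given DMSO, with attention to which blood lineage each pair of arrays resembles. The comparison used the arrays of both control groups, 4 of the 8 in the series, chosen by their titles alone. The scramble group (n = 2) is named for the pLKO lentiviral vector, which was used in the study to make stable lines, and carries a shRNA with no named target. The DMSO group (n = 2) is HEL cells kept for 16 hours with DMSO, the solvent of the drug arm. The remaining groups are cells with a shRNA against PRMT5 in the same kind of vector (n = 2) and cells given 0.5 micromolar CEP701, a kinase inhibitor that blocks JAK2, for 16 hours (n = 2). All 8 samples carry the label HEL, a human erythroleukaemia line, and share RPMI medium with fetal bovine serum. Arm, vector and culture differ together between the control groups, so their parts in any difference cannot be told apart. Whether the scramble line is a clone or a pool, and whether it received DMSO, is not given in the sources used here. The labels do not tie the arrays of a group to different cultures, and the p-values therefore reflect array-to-array spread that may be technical. The titles of the scramble and PRMT5 shRNA arrays share their suffixes, whose meaning the labels do not give. The main model took these arrays as independent.

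As background, erythroid, megakaryocytic and myeloid cells arise from shared progenitors. Erythroid cells fill with globin and the enzymes of haem synthesis, megakaryocytes make the granule proteins and adhesion receptors of platelets, and granulocytes and monocytes make proteases, calprotectin and pattern receptors. HEL cells are known for erythroid and megakaryocytic features and for gain of the JAK2 region on the short arm of chromosome 9.

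Signal values came from a 3' expression array, on which a probe set reports an RNA's end. A gene was tested where its signal was above 60 on at least 2 of the 4 control arrays, and differences are given as log2(signal + 10), scramble minus DMSO, with the standard error (SE) of the fit. The sum with 10 understates differences of weak genes, and where a group lies below 60 its level is near background and the size of the difference has little meaning beyond its direction. Levels of different genes are not comparable on this array.

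In all, 12959 of 19775 genes were tested. Between the scramble and DMSO arrays 6520 genes, 50.3% of those tested, differed at an adjusted p under 0.05 (limma, Benjamini-Hochberg): 3616 genes (27.9%) were higher and 2904 genes (22.4%) were lower in scramble. These shares are the background against which each gene list below is read. Of the genes tested, 985 passed the signal threshold through the scramble arrays alone, above 60 on both and on neither DMSO array. Another 392 passed through the DMSO arrays alone, and the direction of all these was fixed. Among 11570 others, with 12 genes of chromosome Y or X inactivation left out, 2840 were higher and 2631 lower. Lists given without such genes are read against these counts. The median difference over all genes tested was 0.11, and the median absolute difference was 0.68. When the arrays were scaled to the poly-A control transcripts added to each sample, the median over all genes became -0.29 and the split 2069 higher and 3762 lower. Scaling to the median signal gave 2713 higher and 4032 lower. The direction of a small difference therefore depends on the scaling, while the differences of over 2 on the log2 scale described here exceed that shift.

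Replicate arrays correlated at r = 0.968 in scramble and 0.982 in DMSO (log2 signal over the genes tested), and scramble arrays correlated with DMSO arrays at 0.773 to 0.807. Arrays of the same arm but different treatment correlated at 0.954 to 0.975. Every array had a trimmed mean of 500.1, while the median signal was 65.5 and 64.3 in scramble and 51.5 and 49.4 in DMSO. The share of probe sets above a signal of 60 was 51.3 to 51.5% in scramble and 46.2 to 46.7% in DMSO. The 5' to 3' signal ratio of actin was 0.141 and 0.179 in scramble and 0.199 and 0.198 in DMSO, and its part in the differences was not tested. The gene aimed at in the shRNA arm, PRMT5, read 1794 and 984 on the scramble arrays, 664 and 315 with the PRMT5 shRNA, and 3419 and 3221 with DMSO.

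The markers named for the comparison differed between the control groups, although both carry the label HEL. The myeloid markers MPO and S100A8 were abundant on the scramble arrays and under 60 on the DMSO arrays, the adult globin HBB was higher in scramble, and the embryonic globin HBE1 and carbonic anhydrase CA1 were higher in DMSO. A total of 367 genes were above 200 on both scramble arrays and under 60 on both DMSO arrays, and 132 genes had the opposite pattern; these genes were counted for that pattern, which is a description. The groups are called by their treatment alone.

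**Figure D1:**
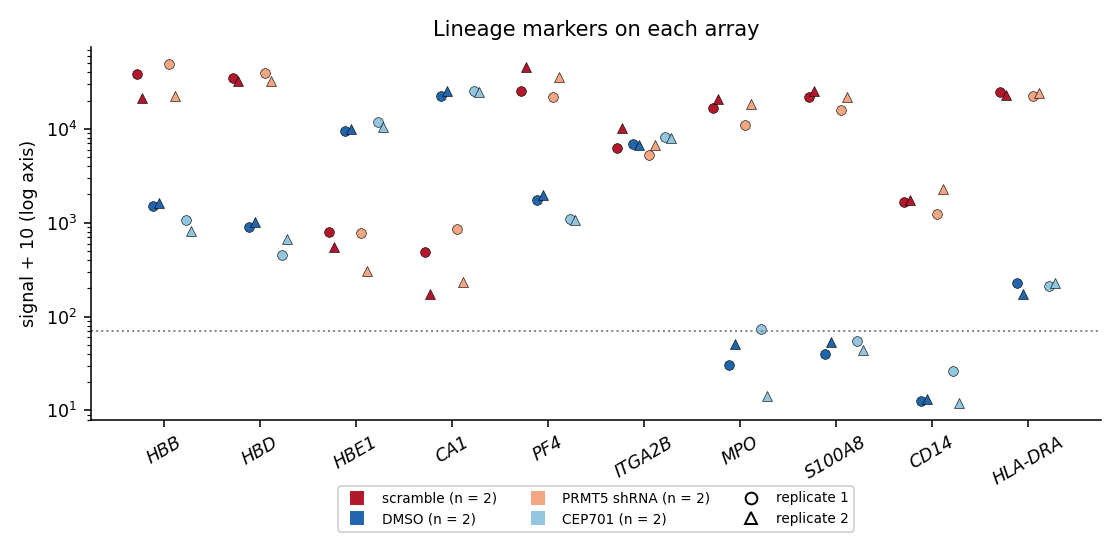
Signal + 10 (log axis) of 10 lineage genes on each of the 8 arrays, with circles for replicate 1, triangles for replicate 2 and a dotted line at a signal of 60. MPO, S100A8 and CD14 lie far above the line on scramble and PRMT5 shRNA arrays. On DMSO and CEP701 arrays they lie below it, except MPO just above it on CEP701 replicate 1. HBE1 and CA1 are higher on DMSO and CEP701 arrays.

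Among globins, the adult beta-like genes were higher in scramble and the embryonic genes were lower or not called. The alpha genes, read on shared probe sets without calls, were lower. HBB, the adult beta chain, read 38265 and 21286 on the scramble arrays and 1509 and 1613 on the DMSO arrays. Its difference was 4.18 (SE 0.36, adjusted p = 2.23e-05). HBD, the minor adult beta-like chain, read 34506 and 32225 against 894 and 1013, a difference of 5.12 (SE 0.19, adjusted p = 3.41e-07). The probe sets of HBB may bind RNA of the closely related HBD as well, so the shares of each in the signal are uncertain. Of the other probe sets of HBB, 2 gave differences of 4.89 and 4.70, and 1 lay at background on all 4 arrays with 0.03.

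HBE1, the embryonic epsilon chain, ran the other way and read 786 and 543 in scramble against 9433 and 9887 in DMSO. That is a difference of -3.87 (SE 0.36, adjusted p = 3.80e-05). The alpha genes HBA1 and HBA2 share their probe sets. On 1 of these the scramble arrays read 4566 and 978 and the DMSO arrays 11904 and 12696, and the 6 shared probe sets gave differences of -2.82 to -2.50. The scramble arrays thus lay below the DMSO arrays and apart from each other. The fetal gamma genes HBG1 and HBG2 also share probe sets, with high signals in both groups and differences of -0.63 to -0.57 over 3 probe sets. The embryonic zeta chain HBZ was not called (72 and 15 against 140 and 173, adjusted p = 0.0812), nor was the theta gene HBQ1 (adjusted p = 0.145). AHSP, the chaperone of free alpha globin, was higher in scramble (3069 and 1185 against 57 and 87, difference 4.57, SE 0.66, adjusted p = 4.59e-04). Of the 6 globin-list genes with a probe set of their own, 3 were higher and 1 was lower, and the median difference was 1.34. Without probe sets that may bind several RNAs, which leaves HBB with the probe set at background, that median turned to -0.74.

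Haem synthesis genes went both ways. Of 14 haem genes tested 3 were higher and 2 were lower in scramble, and the share called (35.7%) was below that of all genes. Their median of -0.02 became -0.29 with median scaling and -0.43 with poly-A scaling. UROD, which decarboxylates uroporphyrinogen, had the largest difference, with 7558 and 4768 in scramble and 24836 and 26627 in DMSO (-2.10, SE 0.29, adjusted p = 3.45e-04). ALAD, which forms porphobilinogen, was higher in scramble (1517 and 1934 against 631 and 632, difference 1.43, adjusted p = 5.33e-04). ALAS2, the erythroid form of the first enzyme of the pathway, was uneven within the DMSO pair (187 and 192 against 26 and 144) and was not called (adjusted p = 0.343). Both directions were also seen in the red cell membrane skeleton, where 2 of 10 genes were higher and 3 were lower. EPB42, which ties the skeleton to the membrane, read 385 and 159 in scramble against 2685 and 3160 in DMSO (-3.50, SE 0.39, adjusted p = 9.93e-05). EPB41, which links spectrin and actin, was lower as well (3811 and 3534 against 7254 and 7493), whereas the tropomodulin TMOD1 was higher (1.66).

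Genes of blood group proteins were mostly lower in scramble: 8 of 13 tested fell and 3 rose, with a median of -1.08. Without the 1 that passed through scramble alone, 8 of 12 fell and 2 rose, with a median of -1.17. ACKR1, the Duffy chemokine receptor, read 102 and 70 in scramble and 984 and 904 in DMSO (-3.33, SE 0.32, adjusted p = 3.90e-05). RHAG, which carries the Rh complex, fell from 18040 and 17475 in DMSO to 6516 and 8316 in scramble (-1.27), and FUT1, the fucosyltransferase that makes the H antigen, differed by -2.29. The groups did not overlap for any of these, as for most genes. Of all 12959 tested, both scramble arrays lay above both DMSO arrays in 5475 and below them in 4493. CD44, an adhesion receptor of many white cells that carries the Indian blood group, was higher in scramble (24398 and 28824 against 8603 and 9225, difference 1.57, adjusted p = 2.36e-04).

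The largest erythroid difference was that of CA1, the main carbonic anhydrase of red cells. CA1 read 478 and 163 in scramble against 22543 and 25366 in DMSO, a difference of -6.36 (SE 0.58, adjusted p = 3.09e-05). SELENBP1, a selenium-binding protein abundant in red cells, and TRIM10, a ring-finger protein of erythroid differentiation, were lower in scramble with it (-4.61 and -3.76). The transferrin receptor TFRC, which imports iron, read 42935 and 33295 against 44510 and 51632 and was not called (adjusted p = 0.113). The erythropoietin receptor EPOR was higher in scramble (541 and 613 against 205 and 293, difference 1.20, adjusted p = 0.00200). Over the 5 erythroid lists together, 15 of 61 genes tested were higher and 19 were lower, a share called of 55.7%, with a median of -0.24. Of the 61, 3 passed through scramble alone, which fixed their direction. Without those 3, 14 of 58 were higher and 19 lower, and the median was -0.32.

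Platelet granule genes were higher in scramble in 11 of 23 and lower in 2, and 4 of the 23 passed the signal threshold through the scramble arrays alone, which fixed their direction. Without those 4, 8 of 19 were higher and 2 were lower, and the median over the 19 was 0.51. PF4, platelet factor 4, read 25549 and 45436 in scramble against 1725 and 1980 in DMSO (4.20, SE 0.28, adjusted p = 5.84e-06). PPBP, the neighbouring chemokine gene of platelet basic protein, read 26323 and 47271 against 565 and 499 (6.03, SE 0.34, adjusted p = 2.21e-06). Both genes were present in each group and far higher in scramble. F13A1, the A subunit of coagulation factor XIII, read 1032 and 4838 against 31 and 3, and VWF, von Willebrand factor, 615 and 2202 against 94 and 11. In these the scramble arrays lay well apart from each other. Clusterin (CLU) and angiopoietin ANGPT1 were lower in scramble, by -1.09 and -0.90.

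Platelet receptor genes went both ways, with 5 of 21 higher and 5 lower and a median of -0.09. ITGA2B, the integrin alpha IIb that defines the lineage, read 6255 and 10138 in scramble against 6835 and 6645 in DMSO, so the groups overlapped (0.24, adjusted p = 0.386). GP9, GP5 and GP6, adhesion receptors of platelets, were likewise not called, with differences of -0.03, -0.11 and -0.13. CLEC1B, the podoplanin receptor, was higher in scramble (1629 and 5880 against 116 and 127, difference 4.56, adjusted p = 1.59e-04), as was the tetraspanin CD9 (3.24, adjusted p = 2.10e-04). ESAM, an endothelial and platelet adhesion molecule, was lower, with a mean of 330 ± 29.4 in scramble against 3155 ± 228 in DMSO (SD, n = 2), a difference of -3.22 (adjusted p = 1.77e-05). So was F2RL2, the thrombin receptor PAR3, by -3.17.

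Of 13 further megakaryocyte genes 5 were higher and 1 was lower. TUBB1, the beta tubulin of platelets, read 2587 and 7979 against 500 and 532 (3.12, SE 0.49, adjusted p = 7.18e-04). Over the 3 megakaryocyte lists 21 of 57 genes were higher and 8 lower, and 50.9% were called, close to the 50.3% of all genes. Their median of 0.31 became -0.10 under poly-A scaling and -0.03 without scramble replicate 2. Of the 57, 4 passed through scramble alone, which fixed their direction. Without those 4, 18 of 53 were higher and 8 lower, and the median was -0.01. The summed signal of all 57 genes was 251200 and 401600 on the scramble arrays and 188200 and 194800 on the DMSO arrays. Bright probe sets, such as those of PF4 and PPBP, weigh most in such a sum.

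Most granulocyte markers were higher in scramble. Of 25 tested 20 were higher and 2 were lower in scramble, with a median of 4.05. Of these, 8 passed through scramble alone, and among the other 17, 12 were higher and 2 lower, with a median of 2.74. S100A8, a subunit of calprotectin, read 21961 and 25622 on the scramble arrays and 29 and 44 on the DMSO arrays. Its difference was 9.01 (SE 0.23, adjusted p = 5.14e-08), and its partner S100A9 gave 9925 and 10108 against 8 and 8. MPO, the myeloperoxidase of neutrophil granules, read 16676 and 20593 against 21 and 41 (8.86, SE 0.63, adjusted p = 7.71e-06). All of these lay under 60 on both DMSO arrays. The primary granule proteases ELANE, PRTN3 and AZU1, which lie side by side on chromosome 19, differed by 9.36, 6.09 and 5.40. The window of 9 neighbouring tested genes around them, from PALM to KISS1R, had the highest median of all such windows, 3.73.

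The list also holds genes of eosinophil granules, and 3 of these are given as examples chosen after their values were seen. PRG2, eosinophil major basic protein, read 32781 and 38547 in scramble against 2309 and 2574 in DMSO (3.86, SE 0.15, adjusted p = 4.18e-07). CLC, the Charcot-Leyden crystal protein, read 6692 and 3236 against 115 and 173 (4.95), and RNASE2, an eosinophil ribonuclease, 7958 and 10540 against 85 and 121 (6.36). Exceptions were MS4A3, a granulocyte progenitor membrane protein, and LCN2, neutrophil lipocalin. MS4A3 was present in both groups and lower in scramble (4486 and 4778 against 26509 and 27503, -2.54, adjusted p = 3.26e-05), and LCN2 read 365 and 578 against 1841 and 1882. Secondary granule genes LTF and CAMP were not called (adjusted p = 0.0773 and 0.422).

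Monocyte markers were higher in 16 of 17 and lower in 1, 8 having passed through scramble alone; of the other 9, 8 were higher and the median was 1.70. CD14, the lipopolysaccharide co-receptor, read 1651 and 1751 in scramble and 3 and 3 in DMSO. LYZ, lysozyme, was expressed in both groups, at 28663 and 30219 against 5293 and 5252 (2.48, SE 0.20, adjusted p = 1.39e-05). CSF1R, the receptor of macrophage colony-stimulating factor, read 640 and 636 against 64 and 94 (2.88, adjusted p = 7.96e-05). AIF1, an actin-binding protein of macrophages, was the exception and was lower in scramble (8758 and 7233 against 22373 and 23677, -1.53, adjusted p = 4.23e-05). Over the 42 granulocyte and monocyte genes tested the summed signal, in which bright probe sets weigh most, was 205900 and 230700 in scramble and 71450 and 73690 in DMSO. Of the 42, 16 were under 60 on both DMSO arrays. In bulk RNA, fewer cells of a type and less RNA per cell cannot be told apart, so these levels do not say what share of the cells carried them.

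Mast cell and basophil genes were higher in 7 of 8, and in 6 of 7 (median 2.84) without TPSB2, which passed through scramble alone. Tryptase genes TPSB2 and TPSAB1, whose probe sets may each bind RNA of both copies, read 19184 and 34473 against 53 and 18 for TPSB2 (9.26, SE 0.44, adjusted p = 1.01e-06). HPGDS, haematopoietic prostaglandin D synthase, read 25587 and 38719 against 1363 and 1543 (4.43), and CPA3, mast cell carboxypeptidase, 33779 and 42653 against 5081 and 5546 (2.84). The high-affinity IgE receptor alpha chain FCER1A was the exception, at 15232 and 14130 in scramble against 34354 and 37686 in DMSO (-1.29, adjusted p = 3.20e-05). That gene is represented by a probe set that may bind several RNAs, and without such probe sets its difference was 0.19 (adjusted p = 0.765).

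**Figure D2:**
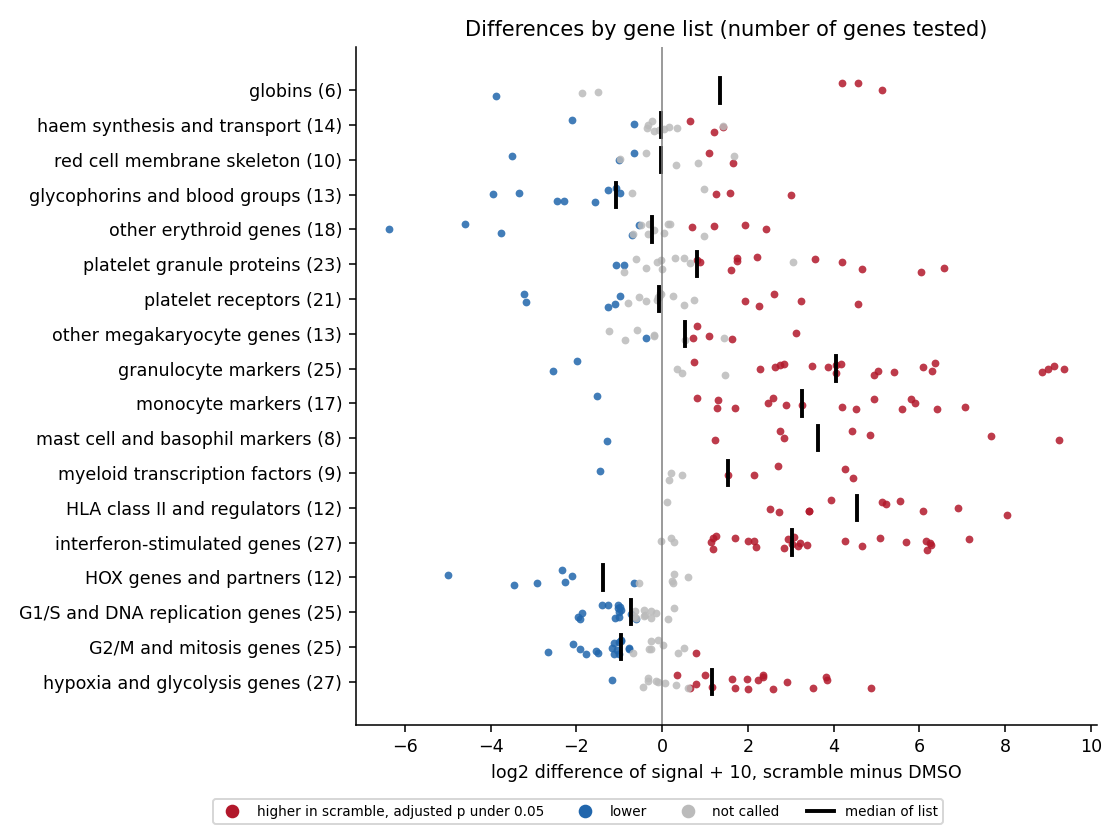
Each point is a tested gene of the list named at the left, placed by its log2 difference of signal + 10, scramble minus DMSO, and coloured by its call; black bars are list medians and numbers in brackets are genes tested. Granulocyte, monocyte, mast cell, HLA class II and interferon lists lie to the right with medians from 3.02 to 4.53 (2.74, 1.70, 2.84, 5.12 and 2.84 in that order without members that passed through scramble alone), the medians of the cell division lists lie left of 0, and the erythroid and platelet receptor lists spread to both sides.

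Transcription factors of the erythroid and megakaryocytic lineages differed in both directions. GATA2, of progenitors and mast cells, was higher in scramble (16384 and 21487 against 7018 and 7819, difference 1.34, adjusted p = 2.08e-04). GATA1, which drives erythroid and megakaryocytic genes, was lower (1183 and 1430 against 1794 and 2023, -0.55, adjusted p = 0.0247), a call lost without scramble replicate 1, without either DMSO array or with the mean of probe sets. FLI1, a megakaryocytic ETS factor, fell by 1.40 on the log2 scale (3729 and 6322 against 12177 and 13558). TAL1 and KLF1, further erythroid regulators, were not called (adjusted p = 0.540 and 0.721). Probe sets that hold RUNX1 together with uncharacterised loci were lower in scramble, at 2210 and 2142 against 7764 and 7918 on the brightest (-1.84). The 15 genes of this list had 5 rises and 3 falls, and their median of 0.18 turned negative under median and poly-A scaling.

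Of the myeloid factors 5 of 9 were higher and 1 was lower, or 4 and 1 of 8 without the member that passed through scramble alone. IRF8, of monocytes and dendritic cells, read 1997 and 1742 in scramble and 84 and 68 in DMSO (4.45, SE 0.26, adjusted p = 2.95e-06). CEBPB and CEBPD, C/EBP factors of myeloid cells, differed by 1.54 and 2.70. CEBPA, the C/EBP factor of granulocyte commitment, was lower (553 and 562 against 1331 and 1809, -1.46, adjusted p = 2.91e-04). SPI1, which encodes PU.1, read 250 and 177 against 129 and 271, and its groups overlapped (adjusted p = 0.765).

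Of 10 fetal and embryonic regulators tested 6 were higher and 2 were lower in scramble, with a median of 0.60, and 1 of the 6, HMGA2, passed through scramble alone. LIN28B, the RNA-binding protein that maintains fetal blood programmes, read 403 and 221 in scramble against 6608 and 6723 in DMSO (-4.43, SE 0.28, adjusted p = 4.03e-06). IGF2BP1, which binds fetal mRNAs, differed by -2.33. HMGA2, a chromatin protein of fetal stem cells, was the reverse, at 790 and 612 against 40 and 34 (3.90, adjusted p = 1.94e-05). ARID3A, SOX6, IGF2BP3 and IGF2BP2 were also higher in scramble, by 1.12, 1.19, 0.77 and 0.44. BCL11A, the repressor of gamma globin, was not called (adjusted p = 0.283), while ZBTB7A, a further gamma globin repressor, was higher in scramble (2376 and 2072 against 868 and 882, difference 1.33, adjusted p = 1.77e-04).

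HOX genes were lower in scramble in 7 of the 12 genes of that list tested and higher in none, with a median of -1.39. Without the 2 that passed through the DMSO arrays alone, 5 of 10 were lower and the median was -0.60, and without probe sets that may bind several RNAs the list's median was -0.15. HOXB7 read 81 and 94 in scramble and 1095 and 1034 in DMSO (-3.47, SE 0.21, adjusted p = 3.13e-06). HOXC6 read 48 and 36 against 2073 and 1292 and passed through the DMSO arrays alone. HOXB2 and HOXB3, at the other end of the HOXB cluster, were not called (adjusted p = 0.434 and 0.0776). Progenitor genes differed in both directions, with 4 of 9 tested higher and 2 lower. Of the 9, 4 passed through scramble alone and 1 through DMSO alone, which fixed their direction. Of the other 4, 1 was higher and 1 lower, with a median of 0.24. SPINK2, a protease inhibitor of progenitors, and PROM1, the stem cell antigen CD133, were near background on DMSO arrays (5.28 and 3.60), while THY1 and the leukaemia gene MECOM were lower in scramble (-5.37 and -2.32). KIT, the stem cell factor receptor, read 18824 and 40163 against 6934 and 7327 (1.95, adjusted p = 0.00295). CD34 was low in both groups and was not called (175 and 138 against 150 and 114, adjusted p = 0.570).

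HLA class II genes, which present peptides on antigen-presenting cells, were higher in 11 of 12, of which 3 passed through scramble alone. HLA-DRA read 24706 and 22856 in scramble against 220 and 165 in DMSO (6.89, SE 0.17, adjusted p = 5.14e-08). CD74, the invariant chain, read 17616 and 15950 against 338 and 365 (5.54). CIITA, their master activator, was near background in DMSO, with a mean of 457 ± 150 in scramble against 36.7 ± 27.1 in DMSO (SD, n = 2), a difference of 3.42 (adjusted p = 3.39e-04). The DNA-binding factor RFX5, which serves the same promoters, was not called (0.11, adjusted p = 0.625). Probe sets of HLA genes can bind RNA of several loci and fit alleles unequally, so single HLA values are uncertain.

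Interferon-stimulated genes were higher in 24 of 27 and lower in none, of which 4 passed through scramble alone, with a median of 3.02. Among the 23 others, 20 were higher. MX1, an antiviral GTPase, read 6228 and 5339 in scramble against 74 and 56 in DMSO (6.27, SE 0.27, adjusted p = 5.68e-07). IFI6, a mitochondrial antiviral protein, read 15888 and 15837 against 777 and 860 (4.26, SE 0.13, adjusted p = 1.25e-07). IFIT1, which binds viral RNA, read 3759 and 4209 against 39 and 112 (5.70), and the ubiquitin-like ISG15 10664 and 10837 against 1466 and 1354 (2.92). The replicate arrays lay close to each other for these genes, except for IFIT1 in DMSO. CMPK2, GBP1 and MX2 were not called (0.20, 0.27 and -0.04).

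The upstream sequences of 3 of these genes are shown because they share the element through which interferon acts, the interferon-stimulated response element, searched on both strands as the half-site GAAA followed, after any 2 bases, by a further GAAA. Each run is the 250 bases before the transcription start, 5' to 3', from the RefSeq promoter table (GRCh38.p14), and capitals mark the matches, which overlap each other in ISG15.
IFI6, chr1:27672193-27672442, minus strand: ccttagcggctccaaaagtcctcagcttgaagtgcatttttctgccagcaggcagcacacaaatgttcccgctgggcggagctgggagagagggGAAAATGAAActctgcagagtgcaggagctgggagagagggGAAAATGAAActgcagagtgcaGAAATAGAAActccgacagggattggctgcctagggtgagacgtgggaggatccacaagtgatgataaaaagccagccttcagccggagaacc
IFIT1, chr10:89392373-89392622, plus strand: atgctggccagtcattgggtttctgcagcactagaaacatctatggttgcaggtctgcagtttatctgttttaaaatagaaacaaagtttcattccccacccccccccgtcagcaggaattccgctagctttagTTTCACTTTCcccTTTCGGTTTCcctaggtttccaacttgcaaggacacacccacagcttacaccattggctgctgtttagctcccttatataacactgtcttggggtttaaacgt
ISG15, chr1:1013247-1013496, plus strand: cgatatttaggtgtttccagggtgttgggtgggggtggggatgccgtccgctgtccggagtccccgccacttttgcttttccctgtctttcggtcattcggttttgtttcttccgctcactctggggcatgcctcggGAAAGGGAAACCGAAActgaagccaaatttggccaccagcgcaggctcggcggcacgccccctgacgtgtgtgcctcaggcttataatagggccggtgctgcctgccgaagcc

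The motif occurred 3 times in IFI6 and 2 times each in IFIT1 and ISG15. Of the 28 interferon-stimulated genes listed, 21 had an entry in the promoter table and 17 of those (81%) held the motif in an upstream sequence, beside 3.71% of all 27305 genes in the table. A match is a description of these letters and not a measured site. For comparison, the GATA motif AGATAA, read on both strands, was found in 11.1% of all genes of the table and in 6 of 15 blood group genes. Of the 6 markers named for this comparison only S100A8 had an entry.

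Of 20 cancer-testis genes listed, which are normally restricted to germ cells, 9 were below the signal threshold, 7 had shared probe sets and 4 were tested. All 4 passed through the DMSO arrays alone, so their direction was fixed, and with no signal threshold the list's median was 0.05. MAGEA1 read 7 and 8 in scramble and 3227 and 3220 in DMSO, and PRAME 19 and 44 against 1695 and 1575.

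The short arm of chromosome 9 carried large differences in both directions. In its 9p24 band 10 of 17 genes tested around JAK2 were lower in scramble and 1 was higher, with a median of -0.94. VLDLR passed through scramble alone and GLDC through DMSO alone, which fixed their direction. Without them 9 of 15 were lower and none was higher, and the median was again -0.94. JAK2, the kinase targeted in the drug arm, read 513 and 561 in scramble against 1670 and 1797 in DMSO (-1.67, SE 0.19, adjusted p = 1.21e-04). RCL1, a ribosome assembly factor beside JAK2, read 917 and 655 against 7786 and 9366 (-3.44), and AK3, a mitochondrial kinase, differed by -1.75. CD274, which encodes PD-L1, lies in the same stretch and was not called (659 and 793 against 598 and 499, adjusted p = 0.128). VLDLR, a lipoprotein receptor, was the single rise, in the direction that the signal threshold fixed (365 and 665 against 15 and 20).

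In 9p21, 3 genes read near background on the DMSO arrays and were abundant on the scramble arrays. HACD4, a fatty acid elongation enzyme, read 3781 and 5826 in scramble against 2 and 17 in DMSO, KLHL9, a ubiquitin ligase adaptor, 2565 and 2069 against 5 and 5, and FOCAD, focadhesin, 846 and 734 against 4 and 3. All 3 passed through the scramble arrays alone. On the CEP701 arrays they were low as well, at 8 and 2 for HACD4, 65 and 26 for KLHL9 and 3 and 24 for FOCAD. For MTAP, the methionine salvage enzyme beside CDKN2A, the probe set of highest mean log2 signal, which stands for the gene here, was not called (88 and 77 against 66 and 58, adjusted p = 0.474). Its 4 other probe sets read 140 to 604 on the scramble arrays and 1.5 to 27.7 on the DMSO arrays, with differences of 2.94 to 5.56. CDKN2A itself was weak in both groups (147 and 78 against 78 and 7, adjusted p = 0.0825). On either side, MLLT3 and CAAP1 were present in both groups and lower in scramble (-1.55 and -1.17). A second probe set of FOCAD was weak everywhere and went the other way (-1.21). DOCK8, an immune signalling gene at the tip of the arm that was picked out after its values were seen, read 4053 and 4289 in scramble and 0.59 and 14.2 in DMSO.

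**Figure D3:**
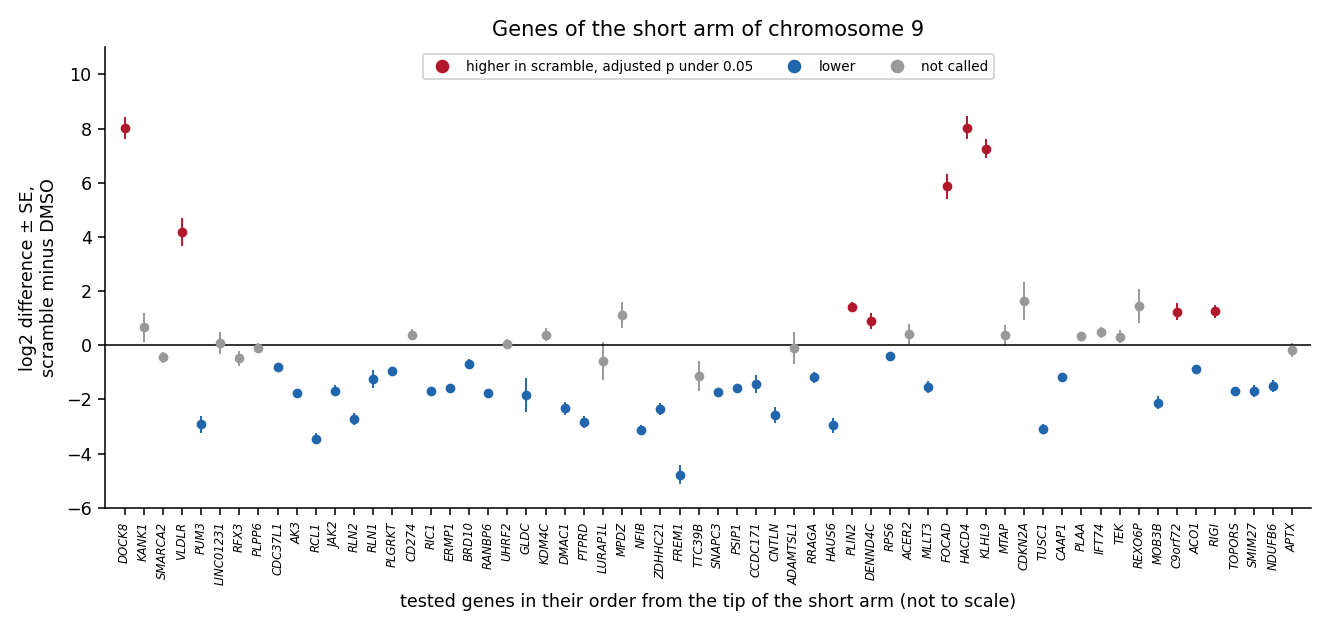
Log2 difference (scramble minus DMSO) ± SE of tested genes of the short arm of chromosome 9, in their order from the tip and not to scale, coloured by call. Most genes from PUM3 to SNAPC3 lie below 0, while DOCK8 and the run FOCAD, HACD4 and KLHL9 stand between 5.87 and 8.04; MTAP is drawn at 0.37, from the probe set of highest mean log2 signal.

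In the list of JAKs, STATs and cytokine receptors 10 of 19 were higher and 4 lower (median 0.98). Without the 2 that passed through scramble alone, 8 of 17 were higher and the median was 0.21. CSF2RB, the common beta chain of the IL-3, IL-5 and GM-CSF receptors, read 21249 and 22610 against 4997 and 4694 (2.18, SE 0.13, adjusted p = 3.35e-06). The alpha chains CSF2RA and IL3RA were near background in DMSO (428 and 475 against 43 and 14 for CSF2RA). IL6R, the interleukin 6 receptor, read 1766 and 2175 against 56 and 70 (4.76, adjusted p = 1.99e-06). STAT5A was lower (2217 and 2178 against 3663 and 3392, -0.68, adjusted p = 0.0127), and STAT3, STAT5B and JAK3 were not called. Of JAK-STAT feedback and target genes 5 of 15 were higher and 5 lower, with a median of 0.18. Without BCL6, which passed through scramble alone, 4 of 14 were higher and 5 lower, and the median was -0.15. ID1, an inhibitor of bHLH factors, read 173 and 102 in scramble against 5396 and 4838 in DMSO (-5.16, SE 0.28, adjusted p = 1.88e-06), and BCL6, a STAT-repressed zinc finger gene, 1253 and 1432 against 13 and 38.

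Cell division genes were lower in scramble. Of G1/S and DNA replication genes 14 of 25 fell and none rose (median -0.72), and of G2/M genes 16 of 25 fell and 1 rose (median -0.96). RRM2, the ribonucleotide reductase subunit, read 7194 and 7880 against 26483 and 30132 (-1.91, SE 0.14, adjusted p = 8.81e-06). CDC20, which activates the anaphase-promoting complex, read 1869 and 1132 against 8505 and 10040 (-2.66, adjusted p = 4.99e-05). UBE2C, its ubiquitin-conjugating partner, was the single rise (0.79). PCNA, the replication clamp, was not called (adjusted p = 0.627). Genes of p53 response went the opposite way, with 12 of 17 higher and 2 lower, or 10 and 2 of 15 without those that passed through scramble alone. CDKN1A, the CDK inhibitor p21, read 4046 and 4229 against 186 and 258 (4.18, SE 0.20, adjusted p = 9.71e-07), and the death receptor TNFRSF10B 3339 and 4166 against 25 and 17. MDM2, the negative regulator of p53, was not called (0.01, adjusted p = 0.984).

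Hypoxia and glycolysis genes were higher in 18 of 27 and lower in 1 (median 1.16). Without ADM, which passed through scramble alone so that its direction was fixed, 17 of 26 were higher and 1 lower (median 1.08). ADM, adrenomedullin, read 1438 and 2118 against 43 and 58 (4.87, adjusted p = 5.79e-06). NDRG1, a stress-response gene, read 2322 and 4075 against 243 and 173, and VEGFA, the vascular growth factor, 3322 and 4999 against 935 and 801. The glycolytic enzymes LDHA and TPI1 were not called (0.07 and -0.10).

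Genes of epithelial, stromal and endothelial cells were also present. Of 13 tested 5 were higher and 4 lower, and 6 of them had passed through a single group. CDH1 and EPCAM, adhesion molecules of epithelia and early erythroid cells, read 2244 and 660, and 2660 and 980, in scramble and under 60 in DMSO. CDH5 and KDR, of endothelium, were seen in DMSO alone (221 and 174, and 443 and 380). Of lymphocyte genes 9 of the 20 listed were tested, and 2 of them passed through scramble alone and 1 through DMSO alone, which fixed their direction. Of the other 6, 2 were higher and 1 lower, with a median of 0.20. NKG7, a granule protein of killer cells, rose by 4.41 and CD2 fell by 2.90 on the log2 scale, while CD3E, a chain of the T cell receptor complex, was not called (59 and 47 against 79 and 74). The part that other cell types had in these differences was not tested.

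The 10 largest rises included 5 genes of the lists above, ELANE, TPSB2, S100A9, S100A8 and MPO, and the 10 largest falls included MAGEA1. CXCL13, a B cell chemokine, had the largest rise, at 17208 and 11658 in scramble against 5 and 6 in DMSO (9.86). MARCKS, a kinase C substrate, IL1RN, the interleukin 1 receptor antagonist, ADAMDEC1, a macrophage metalloprotease, and KRT1, a keratin, followed with 8.39 to 9.20. GPR158, an orphan receptor, had the largest fall, at 8 and 19 against 4814 and 4335 (-7.67). IGFBP5, a binding protein of insulin-like growth factors, SHOX2, a homeobox gene, RUNX1T1, a transcriptional corepressor, and NPY1R, a neuropeptide Y receptor, followed at -6.64 to -7.61. All of these were near background in the lower group, so their sizes depend on the 10 added to each signal.

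By chromosome, genes of chromosome 21 had the lowest median, -0.82, with 14 of 143 tested genes higher and 78 lower. Its lowest window of 9 neighbours, ZBTB21 to NDUFV3, had a median of -2.57. On chromosome 4 the neighbouring chemokine genes from ADAMTS3 to CXCL5, with PF4 and PPBP among them, had a median of 3.06, with 7 of 9 higher. On chromosome 17 the window from HOXB6 to IGF2BP1 had a median of -2.11. These windows were ranked by their medians and are given as a description.

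The same difference between the arms can be set beside the 4 treated arrays, whose levels do not enter the difference between controls, although their spread enters its standard errors and p-values. HBB differed there by 5.15 (PRMT5 shRNA minus CEP701), HBE1 by -4.49, CA1 by -5.82, MPO by 8.78, S100A8 by 8.57 and PF4 by 4.69. Of the 6520 genes called between control groups, 5947 (91.2%) had the same sign on treated arrays, beside 77.2% of all genes tested. Across genes, which are not independent replicates, the arm differences correlated at r = 0.869 (rho 0.760). Of the 367 genes seen in scramble alone 226 had the same on-off pattern on the treated arrays, as did 90 of the 132 seen in DMSO alone. Granulocyte and monocyte genes had a median of 2.75 there and interferon genes 2.49. Hypoxia genes had a median of -0.02 there and G1/S genes 0.05, beside 1.16 and -0.72 on the control arrays. The change of the arm difference between control and treated arrays passed the test for 201 genes (1.55%).

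**Figure D4:**
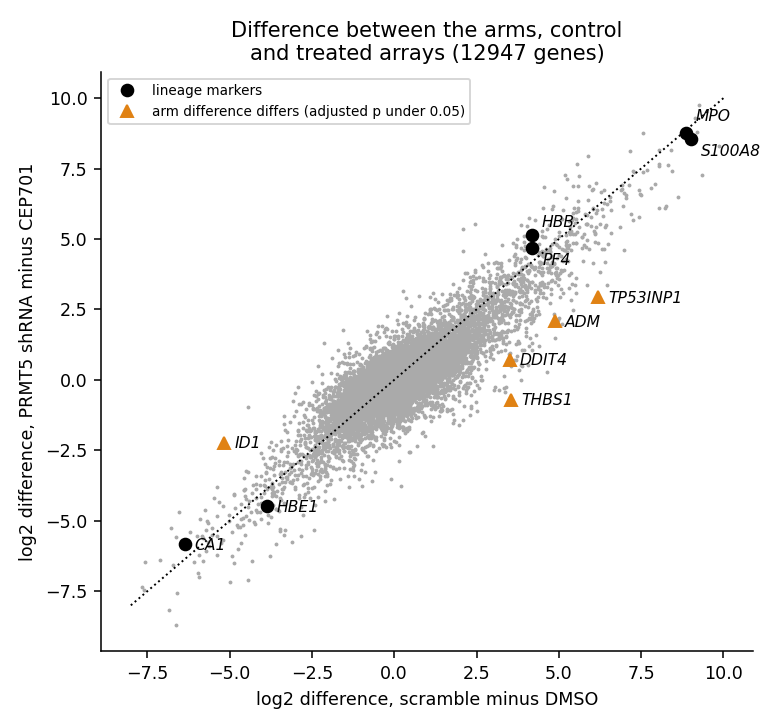
Log2 difference between the arms on the control arrays (horizontal, scramble minus DMSO) and on the treated arrays (vertical, PRMT5 shRNA minus CEP701) for 12947 genes, with 12 genes of chromosome Y or of X inactivation left out and equality as a dotted line. The 6 lineage markers (black) lie near the line, while 5 genes whose arm difference changed (orange) lie off it, such as THBS1 at 3.56 and -0.70.

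The scramble arrays differed from each other in globin, megakaryocyte, cell division and hypoxia genes, with smaller medians between the DMSO arrays. Of the 57 megakaryocyte genes 54 were higher on scramble replicate 2, by a median of 0.84, beside 0.01 between the DMSO arrays. Over all 12959 genes tested 6471 were higher on scramble replicate 2. All 6 globin-list genes were higher on scramble replicate 1, with a median of -1.11 for replicate 2 minus replicate 1. The PRMT5 shRNA arrays, whose titles carry the same suffixes as those of scramble, differed alike: 52 of the 57 megakaryocyte genes were higher on replicate 2 and the 6 globin genes higher on replicate 1. G1/S genes were lower on replicate 2 in 23 of 25 for both groups. In scramble, G2/M genes were also lower on replicate 2 in 23 of 25, and hypoxia genes were higher on it in 23 of 27. Myeloid markers differed less between the scramble arrays, with medians of 0.22 for granulocyte and 0.08 for monocyte genes. The mean of the scramble pair is therefore least precise for globin and platelet genes, as for the alpha globin and F13A1 signals above.

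**Figure D5:**
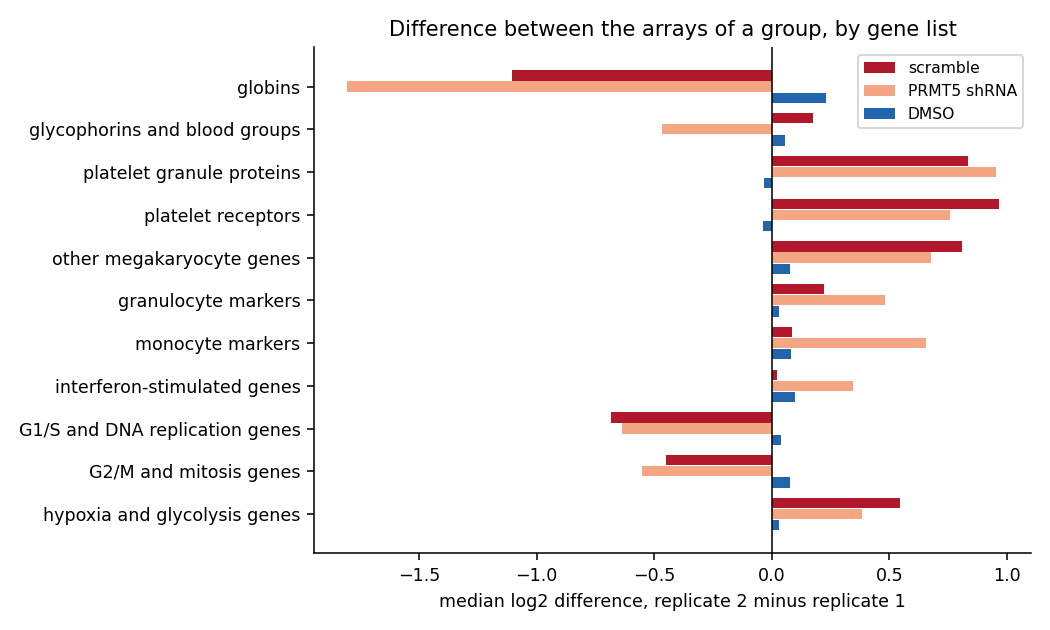
Bars give the median log2 difference between replicate 2 and replicate 1 for each gene list, in scramble, PRMT5 shRNA and DMSO arrays. Scramble and PRMT5 shRNA bars reach -1.11 and -1.81 for globins and lie between 0.68 and 0.96 for the megakaryocyte lists, and the tallest DMSO bar is 0.23.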

How the data were processed

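The deposited values are signal intensities of Affymetrix HG-U133 Plus 2 arrays, for which the submitters' processing notes name MAS5 and Affymetrix Expression Console, with versions not given in the sources used here. Each array has a trimmed mean of 500.1. No raw scans or detection calls were used.

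Of 54675 probe sets, 41097 named 1 gene, 1801 several and 11777 none in the platform annotation; 41043 of the first took their current symbol from RefSeq by Entrez ID. The probe set of highest mean log2(signal + 10) over the 4 control arrays stood for a gene. With log2(signal + 10), a model of 4 groups over all 8 arrays was fitted in limma 3.58.1 (R 4.3.3; lmFit, eBayes with trend), with Benjamini-Hochberg adjustment over 12959 genes and 0.05 as threshold. The fit was tested on simulated data. Sharing a spread over groups gave 4 residual degrees of freedom. Scramble and DMSO arrays share no replicate label. The arrays limit precision, with 2 a group.

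The comparison and the 30 gene lists were chosen with earlier results of these data known. Genes named were the 6 markers, the 10 largest rises and falls, members of lowest p and first members of each list, and all 9p21 and globin genes; others named are examples of their list, chosen after their values were seen. Genes of chromosome Y and of X inactivation are not named. The tried alternatives are described in the closing section.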

Additional observations from a re-analysis of the deposited data

Results flagged for a closer look

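Among the genes named, 5 had an arm difference that was not the same on control as on treated arrays, by limma's test of the difference of differences. For ID1 the control difference (scramble minus DMSO) minus the treated difference (PRMT5 shRNA minus CEP701) was -2.93 (adjusted p = 0.0178), with 672 and 752 on the CEP701 arrays beside 5396 and 4838 on the DMSO arrays. For THBS1, thrombospondin, it was 4.26 (adjusted p = 0.0158), with 16268 and 17122 on the CEP701 arrays beside 948 and 876 on the DMSO arrays. TP53INP1, a p53-induced gene, gave 3.25 (adjusted p = 0.0163). The hypoxia-list genes ADM and DDIT4 gave 2.78 and 2.79 (adjusted p = 0.0314 and 0.0214).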

How the results depend on the processing

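Of 161 named genes called, 140 kept direction and call under all 18 alternatives that gave a value. These genes were mostly picked for large differences or low p, so that share does not stand for all calls. Genes named only as examples of their list were not all followed in this way. The genes called numbered 4594 to 6184 when 1 of the 4 control arrays was left out, 2675 to 3327 higher and 1919 to 2857 lower; without DMSO replicate 2 the lower calls were 1919. These fits kept the genes of the full set, and the lone array was assumed to vary like the other groups. With a replicate block as a random term over arrays of an arm that share a title suffix or number (correlation 0.358) 6508 genes were called, and scramble and DMSO arrays themselves share no number that pairs them.

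Poly-A scaling left 2069 genes higher. Of the 6520 original calls, 4972 stayed under poly-A scaling and 5617 under median scaling. The granulocyte and monocyte median moved from 3.95 to 3.37 with 32 added in place of 10, to 3.50 with no signal threshold, 2.58 with a signal above 60 on all 4 arrays, 3.69 with median scaling, 3.55 with poly-A scaling, 3.59 with the mean of probe sets and 3.50 without probe sets that may bind several RNAs, and was 3.71 to 3.88 with 1 array left out. The erythroid median moved from -0.24 to -0.34 with a signal above 200 on 2 arrays, -0.33 with a signal above 60 on all 4, -0.51 and -0.65 with median and poly-A scaling, -0.13 with the mean of probe sets and 0.030 without those shared probe sets, and was -0.37 to -0.16 with 1 array left out. The megakaryocyte median was -0.03 to 0.70 with 1 array left out and -0.10 with poly-A scaling.

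Medians of smaller lists also changed sign. Those that did, with the values they took, were lymphocyte markers to -0.37 with either stricter threshold and -0.18 without DMSO replicate 1; cancer-testis genes to 0.05 with no threshold; platelet receptors to 0.44 without scramble replicate 1; red cell skeleton genes to 0.22 with the mean of probe sets, 0.75 without shared probe sets and 0.06 without scramble replicate 1; haem genes to 0.05 with quantile normalization, 0.04 without shared probe sets or DMSO replicate 1 and 0.11 without scramble replicate 1; epithelial, stromal and endothelial markers to -0.03 with no threshold, -0.04 with quantile normalization and -0.07 with poly-A scaling; 9p21 genes to -0.42 and JAK-STAT feedback genes to -0.15 with a signal above 60 on all 4 arrays; erythroid and megakaryocyte transcription factors to -0.091 and -0.23 and JAK-STAT feedback genes to -0.09 and -0.23 with median and poly-A scaling; globins to -0.74 and other erythroid genes to 0.047 without shared probe sets. UROS, a haem enzyme, changed sign to -0.13 with the mean of probe sets and -0.43 without shared ones, and FCER1A to 0.19. Taking each gene's probe set of highest peak signal, an alternative chosen after seeing the data, called 6643 genes. The causes of these changes were not tested. Signals under 60 limit what can be said of the lower group.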
